A study of Mus musculus with 24 samples.

Results

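A set of 10 genes that mark tissue macrophages was followed across the postnatal mouse testis with and without ATAD2, a bromodomain AAA+ ATPase of chromatin. The genes are Csf1r, Adgre1, Cx3cr1, Cd68, Lyz2, Cd163, Mrc1, C1qa, C1qb and C1qc. They were taken by symbol from the count tables, and all 10 were present among the 24456 genes listed. All 10 also passed the filter on low counts, which 17170 genes passed. Testis RNA of wild-type (WT) mice was compared with that of mice homozygous for an Atad2 knockout allele (KO), at postnatal days 20, 22, 24 and 26. The KO allele carries a lacZ reporter inserted in the gene and was recombined by a Cre under the ubiquitous CMV promoter, so the loss is constitutive and not limited to germ cells. There were 4 libraries for each genotype at days 20 and 22, and 2 at days 24 and 26, thus 12 WT and 12 KO libraries. The mouse strain is not given in the sources used here. The study describes RNA taken from harvested testes, whereas the labels also mention a purification of spermatogenic cells.

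Macrophages are the most numerous leukocytes of the testis. They lie in the interstitium next to the steroid-producing Leydig cells and around the seminiferous tubules, and they are known for local immune tolerance and for supporting Leydig cell development. Their survival depends on CSF1R, the receptor for CSF1 and IL34. In a whole-testis library their RNA is mixed with that of germ cells, Sertoli cells and the other interstitial cells, and the germ cell part grows as the first wave of spermatogenesis goes on. In such bulk samples, fewer macrophages and less RNA per macrophage cannot be told apart.

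The libraries held 10709667 to 19491935 counts assigned to genes. The 10 genes together took 0.0173% to 0.0442% of these counts, between 166 and 440 CPM, that is, counts divided by library totals that had been adjusted with TMM factors (trimmed mean of M-values). Lists of other leukocytes had low summed levels. The 7 genes of a monocyte and neutrophil list that are in the tables (3 of them past the filter) summed to at most 11.5 CPM and 9 lymphocyte and mast cell genes (5 past the filter) to at most 10.1 CPM in any library. Atad2 itself read 76.1 to 171 CPM in WT and 30.8 to 53.0 CPM in KO libraries, with no overlap. The counts are not resolved by exon, so this checks the labels but not the completeness of the knockout.

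The genes C1qa, C1qb and C1qc, which encode the A, B and C chains of complement C1q, lie next to each other on the minus strand of chromosome 4, within 18.7 kb at chr4:136880129-136898803 (mm10). The remaining members are spread over the genome, among them Cd163 at chr6:124304656-124330527 and Cx3cr1 at chr9:119901616-120069879. Promoters of 7 of the 10 genes were found in a RefSeq table (GRCm38.p6), each covering 250 bases before and 50 bases after the annotated start. They were searched on both strands for GAGGAA, the core letters recognised by PU.1, the macrophage factor encoded by Spi1. Matches were present in 4 of the 7 promoters (C1qb, C1qc, Cd68 and Mrc1), against 28.3% of the 32851 promoters in the table. The 4 promoters with a match and that of Cd163, which had none and is the member called lower in KO in the mean of the days, read as follows, 5′ to 3′ along the gene, with GAGGAA or its reverse complement TTCCTC in capitals.
C1qb promoter: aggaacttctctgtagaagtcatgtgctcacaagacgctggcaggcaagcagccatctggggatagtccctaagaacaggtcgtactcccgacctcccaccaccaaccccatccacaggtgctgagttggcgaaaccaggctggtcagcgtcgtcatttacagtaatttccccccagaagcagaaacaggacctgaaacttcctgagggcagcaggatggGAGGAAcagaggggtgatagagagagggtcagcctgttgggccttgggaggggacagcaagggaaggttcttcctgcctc
C1qc promoter: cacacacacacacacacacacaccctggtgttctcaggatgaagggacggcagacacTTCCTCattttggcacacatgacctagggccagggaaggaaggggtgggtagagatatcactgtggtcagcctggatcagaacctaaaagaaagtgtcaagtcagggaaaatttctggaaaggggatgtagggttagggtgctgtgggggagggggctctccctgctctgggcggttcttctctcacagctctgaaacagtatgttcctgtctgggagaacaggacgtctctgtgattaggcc
Cd68 promoter: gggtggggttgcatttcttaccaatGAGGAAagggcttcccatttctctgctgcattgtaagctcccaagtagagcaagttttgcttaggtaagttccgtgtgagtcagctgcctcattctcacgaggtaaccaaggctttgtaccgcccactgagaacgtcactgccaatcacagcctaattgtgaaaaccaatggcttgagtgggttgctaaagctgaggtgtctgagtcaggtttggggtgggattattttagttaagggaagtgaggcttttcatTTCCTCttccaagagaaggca
Mrc1 promoter: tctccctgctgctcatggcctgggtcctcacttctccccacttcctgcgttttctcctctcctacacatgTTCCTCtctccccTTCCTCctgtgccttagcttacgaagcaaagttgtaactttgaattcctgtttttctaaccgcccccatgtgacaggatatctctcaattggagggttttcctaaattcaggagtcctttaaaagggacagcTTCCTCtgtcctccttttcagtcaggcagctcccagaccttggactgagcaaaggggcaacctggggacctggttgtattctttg
Cd163 promoter: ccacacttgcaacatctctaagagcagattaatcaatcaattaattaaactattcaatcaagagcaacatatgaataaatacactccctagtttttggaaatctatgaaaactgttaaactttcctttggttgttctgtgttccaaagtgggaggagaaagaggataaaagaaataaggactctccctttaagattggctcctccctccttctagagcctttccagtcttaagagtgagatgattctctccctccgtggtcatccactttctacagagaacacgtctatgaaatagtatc

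The windows lie at chr4:136886151-136886450 for C1qb, chr4:136892865-136893164 for C1qc and chr11:69666121-69666420 for Cd68, all on the minus strand, and at chr2:14229164-14229463 for Mrc1 and chr6:124304401-124304700 for Cd163, both on the plus strand. The C1qb match began at position -30 from the start, the C1qc match at -193 and the Cd68 matches at -225 and 30. Mrc1 held 3 matches, at -180, -167 and -35. TGCTGA, part of the element bound by MAF factors, was found in 2 of the 7 promoters (C1qb and Lyz2) against 19.5% of all, TTGCNNAA of the C/EBP factors in 1 (Cd68) against 10.8%, and TATAAA in none against 13.6%. These matches describe letters in a window and are not measured binding.

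Per kilobase of exon, Lyz2 was the most abundant member and Cd163 the least. Lyz2, encoding lysozyme M, averaged 35.0 CPM per kb over the 24 libraries. The C1q genes followed at 22.3 for C1qb, 19.8 for C1qa and 17.0 for C1qc, together with Mrc1, the mannose receptor CD206, at 18.4. Cd68, a glycoprotein of macrophage endosomes, reached 9.30, Csf1r 7.96 and Adgre1, the F4/80 antigen, 4.25 CPM per kb. Cx3cr1, the receptor for the chemokine fractalkine, reached 3.59 and Cd163, the scavenger receptor for haemoglobin-haptoglobin complexes, 0.430 CPM per kb.

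The steps from Lyz2 to C1qb, from C1qc to Cd68, from Csf1r to Adgre1 and from Cx3cr1 to Cd163 held in 24 of 24 libraries. The order of the other neighbours held in only 17 to 19 of 24 libraries. Their mean ratios were 1.05 to 1.19, with an SD of the log2 ratio of 0.22 to 0.34, and these differences were not tested. Within C1q, whose chains assemble in equal numbers, C1qa gave 33.4% ± 3.39 (SD, n = 24 libraries), C1qb 37.7% ± 2.33 and C1qc 28.9% ± 2.86 of the summed per-length level. The depth behind these levels differed widely, from 1095 to 2403 counts per library for Mrc1 to only 7 to 74 for Cd163. Lyz2 shares 5.96% of its 75-base words with its neighbour Lyz1, and Lyz1 received 1 to 14 counts per library.

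**Figure D1:**
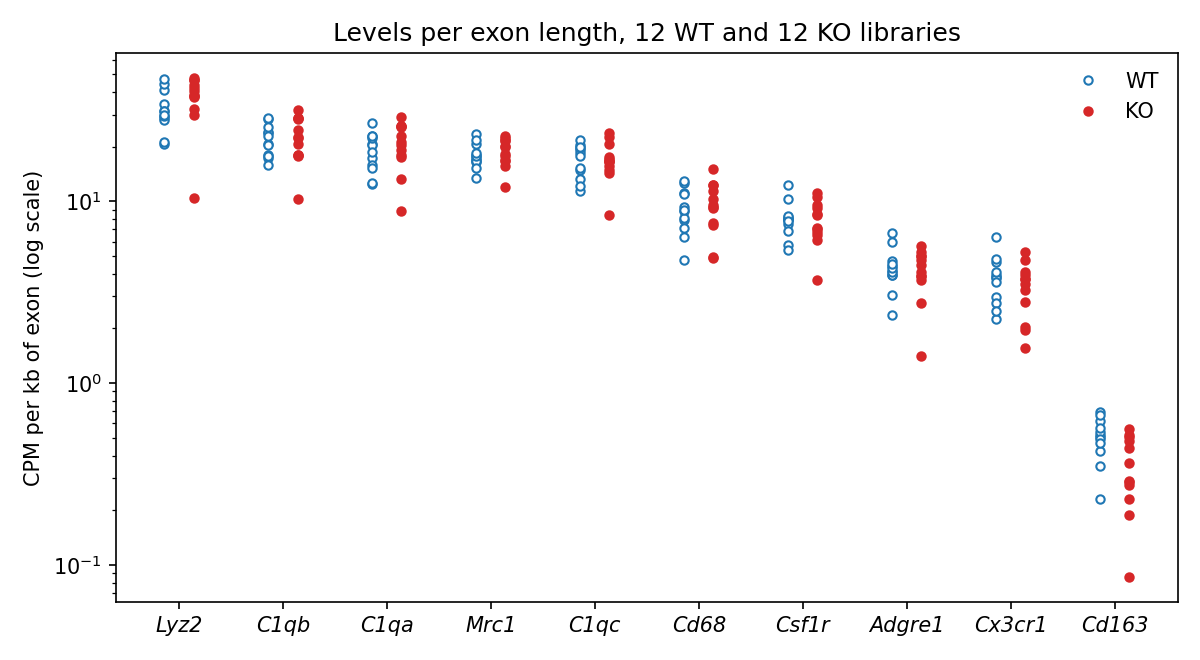
Levels of the 10 genes as TMM-scaled CPM per kb of exon on a log axis, 1 point per library, open blue for the 12 WT and filled red for the 12 KO libraries. Lyz2 lies highest at 35.0 and Cd163 lowest at 0.430 CPM per kb on average.

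The 10 genes varied together from library to library. To see this apart from age and genotype, each library was set against the mean of its own genotype and day, on the log2 CPM scale. Pearson's r of each member with the mean of the other 9 was then 0.963 for Csf1r, 0.955 for C1qc, 0.953 for Adgre1, 0.927 for Lyz2, 0.926 for C1qa, 0.880 for C1qb, 0.874 for Cx3cr1, 0.830 for Mrc1, 0.826 for Cd68 and 0.634 for Cd163 (24 libraries). The 45 pairs of members gave r between 0.437 and 0.953 with a median of 0.842, and the 3 C1q pairs 0.901 to 0.906. These values are descriptions, since all genes of a point share 1 library and its depth. They lean in part on KO replicates 3 and 4 of day 22, the libraries farthest out. Without them r was 0.943 for Csf1r and 0.681 for Mrc1, but 0.282 for Cd163.

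KO replicate 4 of day 22 stood lowest of all. The library also had the lowest share of pairs with several alignments (4.74%, against 5.98% to 13.7% elsewhere) and of mitochondrial ribosomal RNA (0.170%), whose part in the result was not tested. Its members summed to 166 CPM, whereas KO replicates 1, 2 and 3 of that day gave 375, 312 and 439 CPM and the 4 WT libraries of the day 312 to 335 CPM. All 10 members lay below their group mean in it, by 1.01 on average on the log2 scale (mean deviation -1.01). Csf1r read 21.3 CPM there against 40.7 to 60.7 CPM in the other three KO libraries of day 22, Lyz2 13.7 against 42.4 to 61.2, and Cd163 0.469 against 1.03 to 1.98. The lists of other interstitial cells were low in the same library, with mean deviations of -0.72 for 7 Leydig genes, -0.57 for 6 peritubular myoid genes and -0.51 for 8 endothelial genes, whereas 11 Sertoli genes stood at 0.10. The list of 6 elongating spermatid genes stood at -1.78 in it. WT replicate 2 of day 20 stood apart in other measures, with the highest share of pairs with several alignments (13.7%), 3.26% mitochondrial ribosomal RNA against at most 1.06% elsewhere and the lowest TMM factor (0.887). Its counts differed from those of the other WT libraries of day 20 by a chi-square per degree of freedom of 94.2 to 129, against 5.07 to 53.0 for the other pairs within a group. Its members summed to 348 CPM. Without it the member median of KO against WT at day 20 was 0.19 in place of 0.18, that of the change with age in WT was 0.30 in place of 0.33, and Cd163 kept its call over the 4 days (edgeR adjusted p = 0.0462). In KO with age, Cd163 then passed (edgeR adjusted p = 0.0474, against 0.0532 with the library). At the other end, KO replicate 3 of day 22 had all 10 members above the group mean (mean deviation 0.63), as had WT replicate 1 of day 26 (0.36). A list of 4 epididymis genes differed widely between libraries of a group. In WT it summed to 0.310 and 716 CPM at day 24 and to 0.521 and 545.5 CPM at day 26. In KO the sums were 0.138 and 157 CPM at day 24 and 0.344 and 128 CPM at day 26. At day 22 it ran from 0.0704 to 530 CPM in WT and from 0.134 to 128 CPM in KO. Its 2 genes past the filter had a median r of 0.236 with the member mean. The part of the other cell types, and of the epididymis, in the member levels was not tested.

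**Figure D2:**
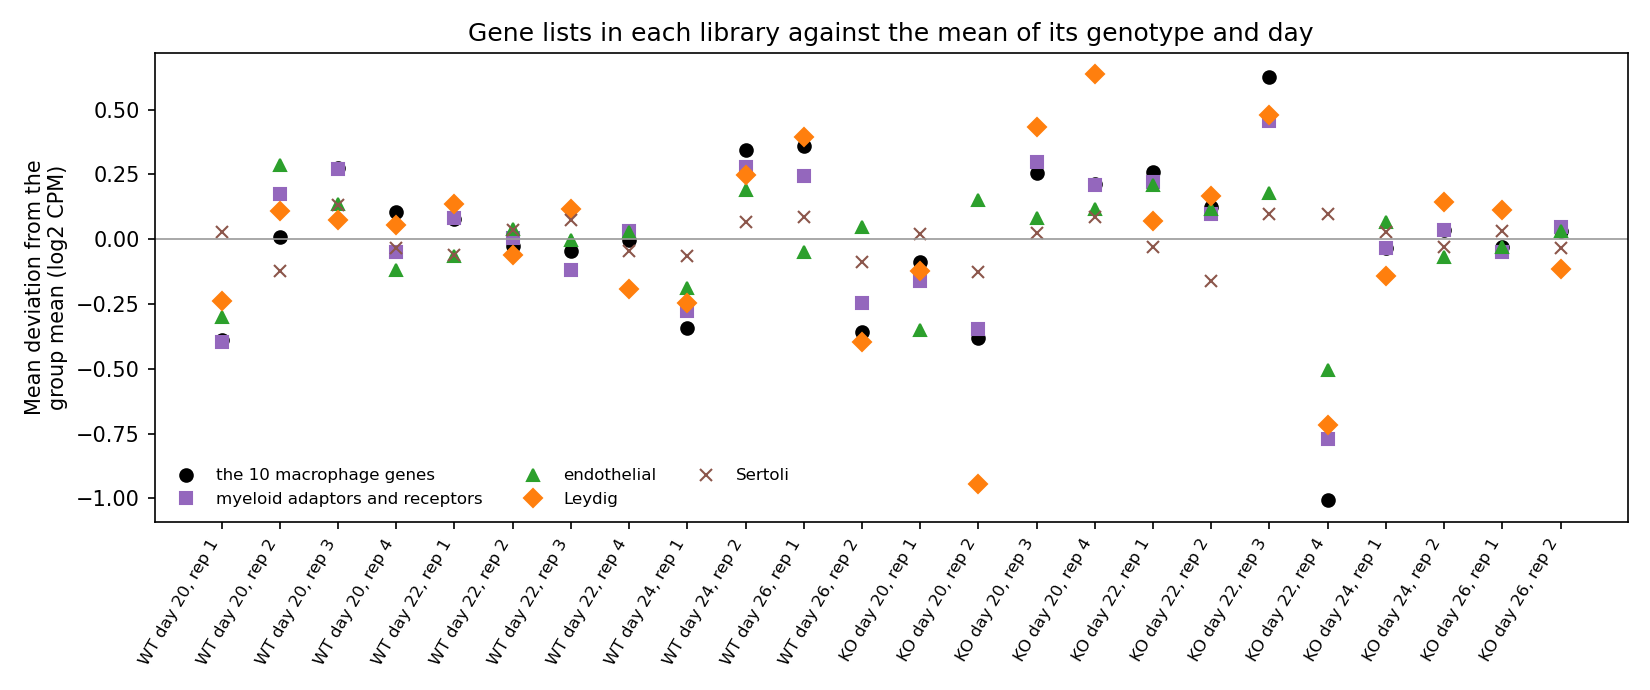
Mean deviation of 5 gene lists from the mean of their genotype and day (log2 CPM), for each of the 24 libraries. The 10 macrophage genes (black circles) run close to the myeloid list (purple squares) and reach -1.01 in KO replicate 4 of day 22, where the Sertoli list (crosses) stands at 0.10.

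The genes outside the 10 that followed them most closely were Tyrobp (r = 0.973), Samhd1 (0.965), Cyp27a1 (0.961), Cd47 (0.958), Lcp2 (0.947), Cxcl16 (0.944), Reep3 (0.944), F13a1 (0.943), Sepp1 (0.939) and Ctss (0.939), ranked among 17160 genes over the 24 libraries. Tyrobp encodes the adaptor DAP12 of myeloid receptors and Ctss the lysosomal protease cathepsin S. Over all genes, 1.56% had r over 0.8. Among 18 further myeloid adaptors and receptors 10 did so, among 6 partners of C1q in the classical complement pathway 4 (C2, C1ra, Serping1 and C1s1), and among 8 resident macrophage genes 4 (F13a1, Stab1, Siglec1 and Folr2). Of 8 transcription factors of macrophages, Maf (0.928), Runx1 (0.873) and Spi1 (0.825) passed this value. Without KO replicates 3 and 4 of day 22 the counts over 0.8 were 6 myeloid, 1 complement (C2), 2 resident (F13a1 and Stab1) and 3 transcription factor genes.

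Some genes used as macrophage markers did not follow the members. The 7 MHC class II genes reached 0.624 at most, with a median of 0.364. Fcgr3, encoding a low-affinity IgG receptor, had r = -0.14 and Lyve1, a hyaluronan receptor of perivascular macrophages and lymphatic vessels, r = 0.04. The Leydig list had a median of 0.73 (0.654 without KO replicates 3 and 4 of day 22). The Sertoli list had a median of -0.26, which was -0.074 without these libraries, and its members ranged from -0.567 to 0.825.

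The first question of the design is whether loss of ATAD2 changed these genes. With edgeR's quasi-likelihood test over all genes, 0 of the 10 passed an adjusted p of 0.05 at day 20, 22, 24 or 26, while 3.34%, 2.51%, 0.0874% and 0.0466% of all genes tested did so on these days. Averaged over the 4 days, 1 of the 10 passed, Cd163, against 7.08% of all genes, or 3.56% lower in KO. At an unadjusted p under 0.05, the members counted 0, 1, 0 and 2 on the separate days, against 12.5%, 14.6%, 5.23% and 11.5% of all genes. DESeq2 also called 0 at days 20, 24 and 26, but 1 at day 22, again Cd163. The median log2 fold change of the 10 (KO over WT) was 0.18 at the first of these days, -0.05 and 0.20 at days 22 and 24, and -0.28 at the last, whereas the median of all genes lay between -0.04 and 0.01. Single libraries turned 3 of these medians, to 0.18 at day 22 without KO replicate 4 (also above 0 without WT replicate 1), to -0.14 at day 24 without WT replicate 1 and to 0.10 at day 26 without WT replicate 1, whereas at day 20 leaving out 1 library gave 0.07 to 0.30. The spermatid stage was scored as the mean centred log2 CPM of 7 round spermatid genes minus that of 6 pachytene genes. The score itself differed by genotype at day 20, with a median of -2.99 in WT and -0.81 in KO (4 libraries each), so a fit with it as a covariate also takes up part of the genotype difference. With this covariate the medians at days 20 and 22 were -0.31 and -0.37, and that of the mean of the days was -0.21 in place of 0.03, itself between -0.07 and 0.11 without 1 library. This last median was below 0 without KO replicate 3 of day 22, WT replicate 1 of day 24 or WT replicate 2 of day 26.

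Cd163 was lower in KO over the 4 days. At day 20 it read 1.26, 2.84, 2.78 and 2.95 CPM in WT and 2.39, 3.07, 2.84 and 2.78 CPM in KO. At day 22 it read 2.32, 1.92, 2.68 and 3.79 CPM in WT and 1.03, 1.5, 1.98 and 0.469 CPM in KO. At day 24 the WT libraries gave 2.54 and 3.40 CPM and the KO libraries 2.63 and 1.57 CPM, and at day 26 WT gave 3.65 and 3.09 CPM and KO 1.58 and 1.26 CPM. The genotypes thus overlapped at days 20 and 24, and at day 22 only through KO replicate 3, and were apart at day 26. The log2 fold change over the 4 days was -0.67 (SE 0.20, edgeR adjusted p = 0.0415). At day 20 it was 0.17 (edgeR adjusted p = 0.901). At day 22 it was -1.11 (edgeR adjusted p = 0.0734), followed by -0.50 (edgeR adjusted p = 1) and, on the last day, -1.25 (edgeR adjusted p = 0.291). The value at day 24 was -0.91 without KO replicate 1 of that day and -0.18 without KO replicate 2.

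The call for Cd163 rests on few counts and is near the threshold. It was lost in 14 of 24 fits that left out 1 library, whose log2 fold changes ran from -0.77 to -0.59 (edgeR adjusted p from 0.0253 to 0.123), and also without the filter on low counts (edgeR adjusted p = 0.0514) and with a covariate for the spermatid stage (edgeR adjusted p = 0.121). At day 22 the value was -0.85 without KO replicate 4 (edgeR adjusted p = 0.159) and -1.42 without KO replicate 3 (edgeR adjusted p = 0.044).

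**Figure D3:**
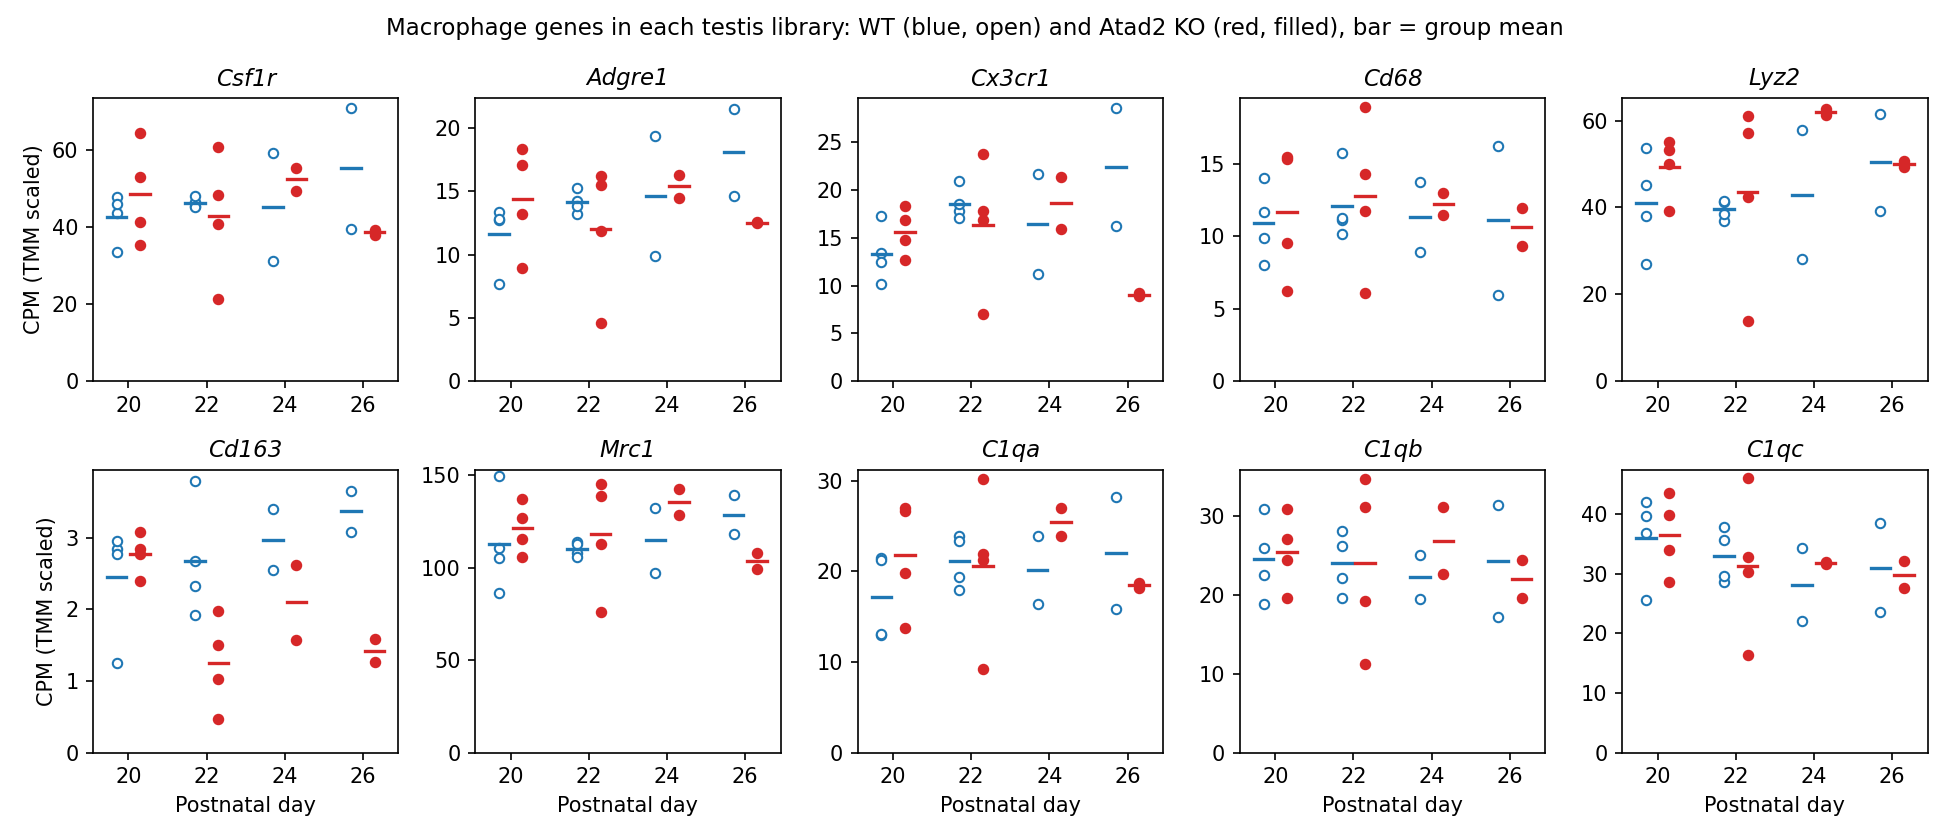
TMM-scaled CPM of each gene by postnatal day, 1 point per library and a bar at the group mean, for WT (open blue) and Atad2 KO (filled red). The KO points of Cd163 and Cx3cr1 lie below both WT points at day 26, and KO replicate 4 of day 22 is the lowest KO point of that day in every panel.

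Cx3cr1 stood apart at the last day, short of the adjusted threshold. At day 26 it read 28.6 and 16.2 CPM in WT and 8.88 and 9.18 CPM in KO, with no overlap. At day 24 WT gave 11.2 and 21.7 CPM and KO 15.9 and 21.4 CPM. At days 20 and 22 the 8 WT libraries ran from 10.1 to 20.9 CPM and the 8 KO libraries from 7.04 to 23.8 CPM, also overlapping. The log2 fold change at day 26 was -1.31 (SE 0.39, edgeR adjusted p = 0.209), and -0.83 without WT replicate 1 (edgeR adjusted p = 0.913). When only the 4 libraries of day 26 were fitted, both Cx3cr1 (edgeR adjusted p = 0.0277) and Cd163 (edgeR adjusted p = 0.0257) passed, in a fit where 2104 of all genes passed. The Cx3cr1 values on the other days were 0.23, -0.18 and 0.18 at days 20, 22 and 24.

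In the fit of all 24 libraries no member passed on a single day. Csf1r at day 26 read 71.0 and 39.5 CPM in WT and 39.3 and 37.9 CPM in KO. Mrc1 at day 26 read 139 and 118 CPM in WT and 99.1 and 108 CPM in KO. In both the KO libraries lay below WT, for Csf1r with almost no gap. With Adgre1, Cx3cr1 and Cd163, 5 members were without overlap at day 26, all lower in KO, but 59% of all genes had no overlap at that day with 2 libraries a genotype. At day 24 the 1 member without overlap was Lyz2, with 28.1 and 57.9 CPM in WT and 61.3 and 62.8 CPM in KO (log2 fold change 0.53, edgeR adjusted p = 1), against 44% of all genes. The fold change of Lyz2 was 0.10 without WT replicate 1 of day 24 and 1.16 without WT replicate 2. At days 20 and 22 no member was without overlap, against 4.71% and 8.09% of all genes.

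Averaged over the 4 days, the log2 fold changes of the 9 members besides Cd163 ran from -0.27 for Cx3cr1 to 0.23 for Lyz2. Between them lay Adgre1 at -0.10, Csf1r at -0.06, C1qc at 0.02, Mrc1 at 0.03, C1qb and Cd68 at 0.05 each and C1qa at 0.10. Their 95% intervals all held 0 and reached from -0.62, the lower end for Cx3cr1, to 0.64, the upper end for Lyz2. Mrc1 was bounded most tightly, between -0.18 and 0.25. Leaving out 1 library gave -0.37 to -0.11 for Cx3cr1, 0.13 to 0.40 for Lyz2 and 0.01 to 0.22 for C1qa.

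**Figure D4:**
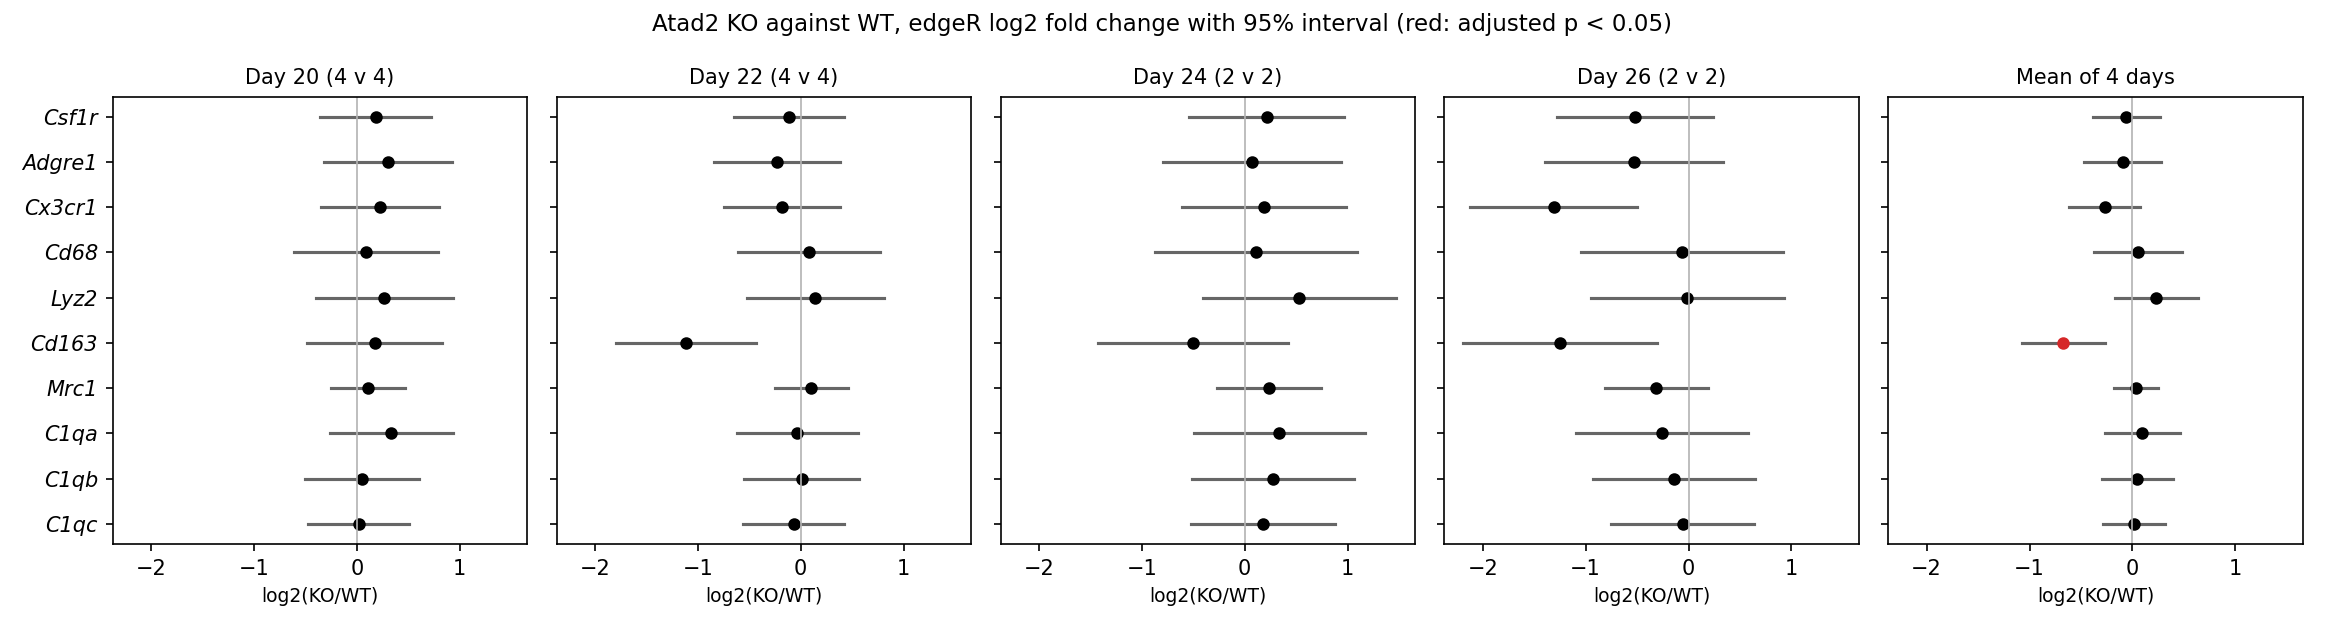
Log2 fold change of KO over WT with its 95% interval from edgeR for each gene on each day and for the mean of the 4 days, with the number of libraries per genotype above each panel. Only Cd163 in the mean of the days (red, -0.67) had an adjusted p under 0.05.

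Whether the KO effect changed with the day was tested jointly over the 4 days. None of the 10 passed (0 of 10, and 0.00582% of all genes). At an unadjusted p under 0.05 (9.06% of all genes) there were 2, Cx3cr1 (edgeR adjusted p = 0.47) and Cd163 (edgeR adjusted p = 0.508), and DESeq2 called 0.

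The second question is what happened with age, from day 20 to day 26. In WT, 0 of the 10 passed with edgeR, although 42.5% of all genes tested did so, and in KO 0 of the 10 passed against 52.2% of all genes. DESeq2 called 0 in both genotypes, and at an unadjusted p under 0.05 there were 1 member in WT and 2 in KO, against 49.9% and 58% of all genes. The median log2 fold change of the members was 0.33 in WT, where 8 of 10 were above 0, and -0.23 in KO, where 9 of 10 were below 0. The medians of all genes were -0.04 and -0.07. Without WT replicate 1 of day 26 the WT median turned to -0.10, and it was 0.58 without WT replicate 2, whereas the KO median kept its sign in the 24 fits that left out 1 library (-0.38 to -0.16). With a covariate for the spermatid stage, which itself rises with age, the member medians were -0.84 in WT and -0.98 in KO, 0 genes of any kind passed in WT and 1100 in KO.

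The largest change with age among the members was that of Cx3cr1 in WT and that of Cd163 in KO, neither past the threshold. In WT, Cx3cr1 went from 13.4, 10.1, 17.2 and 12.5 CPM at day 20 to 28.6 and 16.2 CPM at day 26, which overlap (log2 fold change 0.75, SE 0.33, edgeR adjusted p = 0.0696). In KO it went from 14.7, 12.6, 18.4 and 16.9 CPM to 8.88 and 9.18 CPM, without overlap (log2 fold change -0.79, SE 0.35, edgeR adjusted p = 0.0623). The WT value was 0.27 without WT replicate 1 of day 26 (edgeR adjusted p = 0.653). Cd163 gave 0.46 in WT (edgeR adjusted p = 0.339) and -0.96 in KO (edgeR adjusted p = 0.0532).

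The difference between the genotypes in this change was below 0 for all 10 members, with a median of -0.51 against -0.07 for all genes, of which 56.9% were below 0. Without WT replicate 1 of day 26 the median was -0.17, and without WT replicate 2 it was -0.82. None passed the test of the difference itself (0 of 10, 0% of all genes). The median was -0.10 with the stage covariate. At an unadjusted p under 0.05 (10.8% of all genes) there were 2, Cx3cr1 with -1.54 (edgeR adjusted p = 0.209) and Cd163 with -1.42 (edgeR adjusted p = 0.322), and DESeq2 called 0 members. The comparison shares its libraries with the tests at days 20 and 26 and is not separate evidence.

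**Figure D5:**
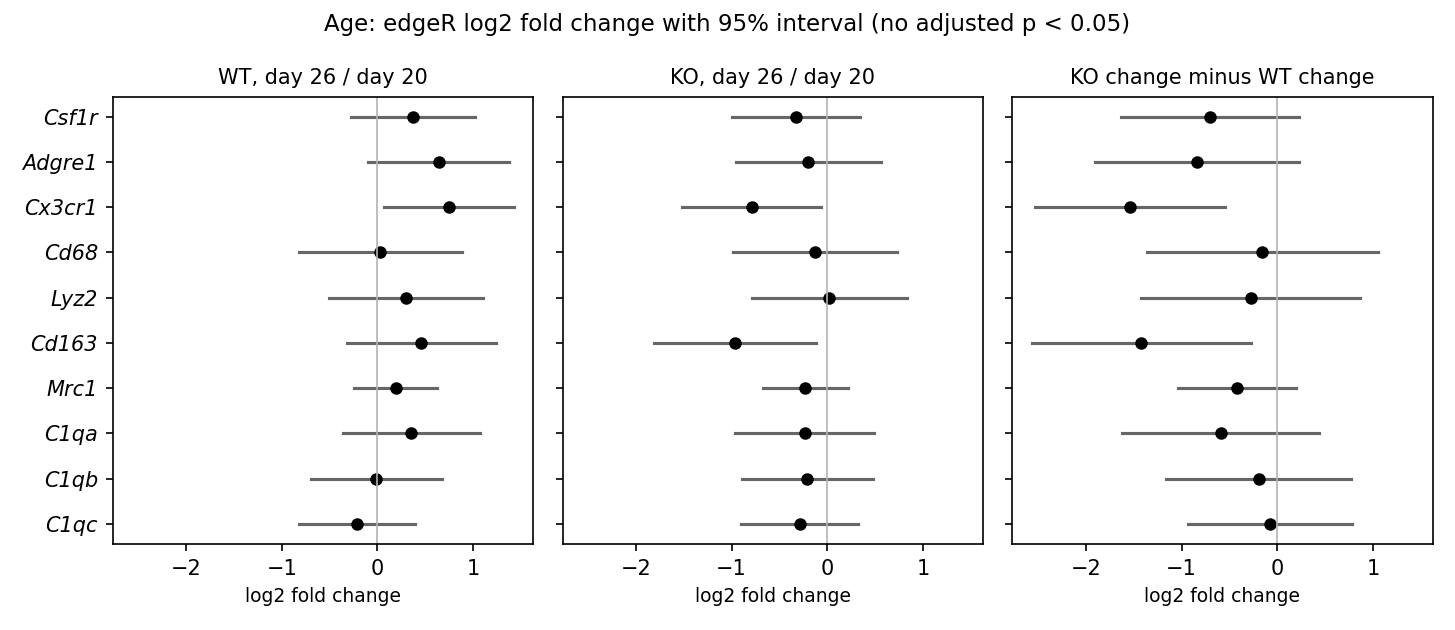
Log2 fold change from day 20 to day 26 with its 95% interval from edgeR, for WT, for KO and for the difference between the genotypes. Cx3cr1 stands at 0.75 in WT and -0.79 in KO, and no gene had an adjusted p under 0.05.

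These levels are relative to all RNA of the testis. Over the same days the Sertoli list, whose cells no longer divide at this age, had 8 of 11 genes lower in WT and 6 of 11 in KO, with medians of -0.71 and -0.70, against 18.1% and 24.9% of all genes that were lower. When the libraries were scaled to the Sertoli list, the median of all genes moved to 0.49 in WT and 0.35 in KO, and the members stood at 0.85 in WT and 0.20 in KO. On this scale 6 of the 10 members were called higher in WT (Csf1r, Adgre1, Cx3cr1, Cd163, Mrc1 and C1qa). Of the 17170 genes tested, 8110 passed there, 7918 of them higher and 192 lower. A call for a rise was thus common among all genes on this scale and not particular to the members. In KO 0 members passed, while 6900 of all genes were called higher and 860 lower.

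The neighbouring parts of macrophage biology were followed with lists that were, like the members, chosen with earlier results of these data known. Among 4 ligands of the member receptors, 0 passed between the genotypes with edgeR or DESeq2 on any day or in the mean, and 1 had an unadjusted p under 0.05, at day 22. Cx3cl1, the fractalkine that binds CX3CR1, fell with age by 0.83 in WT (edgeR adjusted p = 0.0219) and by 0.71 in KO (edgeR adjusted p = 0.0384). Csf1, the ligand of CSF1R, fell in KO by 0.80 (edgeR adjusted p = 0.0339) and stood at -0.28 in WT (edgeR adjusted p = 0.462). These calls were lost on the scale of the Sertoli list, and that of Cx3cl1 in KO also with DESeq2 (adjusted p = 0.0579). The median of the 4 ligands was -0.07 in WT and -0.38 in KO.

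Among the 6 classical complement partners, 0 passed between the genotypes with edgeR, with at most 2 at an unadjusted p under 0.05 on a day, and DESeq2 called 1, Serping1, at day 22. With age 1 of 6 rose and 1 fell in each genotype, while 24.4% of all genes rose and 18.1% fell in WT, and 27.2% and 24.9% in KO. C4b, a substrate of the C1 protease, rose by a log2 of 0.68 in WT (edgeR adjusted p = 0.015) and 0.58 in KO (edgeR adjusted p = 0.0271). Serping1, the C1 inhibitor, fell by 0.72 in WT (edgeR adjusted p = 0.0384, and 0.053 without WT replicate 2 of day 20), and C1s1, a protease of the C1 complex, by 0.74 in KO (edgeR adjusted p = 0.00859). On the Sertoli scale these falls were -0.18 and -0.32 and were not called.

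Of the 8 transcription factors, Irf8, which directs monocyte and macrophage differentiation, was higher in KO at day 20. It read 4.72, 5.05, 6.94 and 9.22 CPM in WT and 20.5, 7.59, 18.8 and 16.1 CPM in KO. Only KO replicate 2 lay within the WT range (log2 fold change 1.27, SE 0.31, edgeR adjusted p = 0.0243). The call was lost in 6 of 24 fits that left out 1 library (without WT replicate 2, edgeR adjusted p = 0.0832), with only the day 20 libraries (1.27, edgeR adjusted p = 0.187) and with the stage covariate (0.51, edgeR adjusted p = 0.832). With age, Irf8 rose in WT by a log2 of 0.94 (edgeR adjusted p = 0.0453, lost in 16 of 24 such fits). Nr1h3, the oxysterol receptor LXR alpha, rose by 0.87 in WT (edgeR adjusted p = 0.00938, and 0.62 without WT replicate 2 of day 20, edgeR adjusted p = 0.0179) and 0.97 in KO (edgeR adjusted p = 0.00303), and Runx1 fell in KO by 0.86 (edgeR adjusted p = 0.0389, DESeq2 adjusted p = 0.0633, and -0.44 on the Sertoli scale, not called). With the stage covariate the WT values of Irf8 and Nr1h3 turned to -0.97 and -0.16. The median of the 8 was 0.27 in WT and -0.50 in KO.

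Of the 18 myeloid adaptors and receptors, edgeR called 1 lower in KO at days 22 and 26 and in the mean of the days, against 1.25%, 0.0466% and 3.56% of all genes. Each time this gene was Fcgr3, and DESeq2 called Fcgr3 at day 24 as well. At day 20 it read 49.1, 35.4, 21.1 and 22.0 CPM in WT and 25.5, 20.5, 26.9 and 22.6 CPM in KO, which overlap. At days 22, 24 and 26 the 8 WT libraries read 52.6 to 65.9 CPM and the 8 KO libraries 21.8 to 28.6 CPM. The groups were apart on each of these days, and the KO libraries stayed near the day 20 level. The log2 fold change was -1.07 at day 22 (edgeR adjusted p = 0.0045), -1.20 at day 24 (edgeR adjusted p = 0.0963), -1.45 at day 26 (edgeR adjusted p = 0.0401, lost in 14 of 24 fits without 1 library, on the Sertoli scale and with DESeq2 size factors) and -1.03 over the 4 days (SE 0.11, edgeR adjusted p = 7.06e-06). In WT it rose with age by a log2 of 1.01 (edgeR adjusted p = 0.000793), and in KO the change was -0.02 (edgeR adjusted p = 0.944). The difference between these changes was -1.03 (edgeR adjusted p = 0.207).

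With age 2 of the 18 myeloid genes were called higher and 2 lower in WT, and 1 higher and 2 lower in KO. The shares of all genes were 24.4% higher and 18.1% lower in WT, and 27.2% and 24.9% in KO. Aif1, encoding IBA1, rose by a log2 of 5.70 in WT (edgeR adjusted p = 1.54e-06) and 4.48 in KO (edgeR adjusted p = 1.47e-05), whereas 0 of the 10 members passed. With the stage covariate these values were -0.88 and 1.19, neither called. From library to library Aif1 followed the members with r = 0.542 (0.438 without KO replicates 3 and 4 of day 22). Mertk, a receptor for apoptotic cells, and Mpeg1, a perforin of macrophages, fell in both genotypes by log2 values of 0.73 to 0.81. On the scale of the Sertoli list they stood at -0.23 and -0.23 in WT and at -0.32 and -0.39 in KO, and these calls were lost. The medians of the 18 genes were 0.16 in WT and -0.24 in KO.

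Of the 8 resident macrophage genes, Lyve1 alone was called by edgeR in these comparisons. At day 22 it read 3.31, 5.69, 3.20 and 7.42 CPM in WT and 2.12, 1.68, 1.71 and 1.21 CPM in KO, without overlap (log2 fold change -1.54, SE 0.26, edgeR adjusted p = 0.00335). It was also lower in the mean of the days (-0.83, edgeR adjusted p = 0.00412, and 0.0612 with the stage covariate), and it fell with age by a log2 of 1.26 in both genotypes, calls that were lost on the Sertoli scale (-0.70 in WT and -0.85 in KO). Among the 7 MHC class II genes 0 passed between the genotypes with edgeR or DESeq2. At most 2 had an unadjusted p under 0.05, in the mean of the days, where 23.2% of all genes did so. H2-DMa and H2-DMb1, whose products load peptides onto class II molecules, rose in WT with age by log2 values of 0.81 and 0.67, calls that were lost in 10 and 17 of 24 fits without 1 library (0.54 and 0.63 without WT replicate 2 of day 20) and turned to -0.78 and -0.33 with the stage covariate. DESeq2 did not call H2-DMb1 (adjusted p = 0.0846).

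Of the lymphocyte and mast cell list, Cd3e, a chain of the CD3 complex of T cells, was lower in KO with edgeR and DESeq2 at days 20 and 22 and in the mean of the days, on low counts. At day 20 it read 3.77, 2.95, 4.57 and 2.59 CPM in WT and 0.725, 0.589, 0.396 and 0.880 CPM in KO, without overlap (log2 fold change -2.42, SE 0.33, edgeR adjusted p = 0.000541). At day 22 WT gave 1.55, 1.003, 2.21 and 1.84 CPM and KO 0.363, 0.661, 0.659 and 0.402 CPM, again without overlap (-1.67, edgeR adjusted p = 0.0147, and 0.0637 with only that day's libraries). The groups were also apart at day 24, at 1.18 and 1.63 CPM in WT and 0.553 and 0.589 CPM in KO, and overlapped at day 26, at 1.68 and 0.718 CPM in WT and 0.551 and 0.918 CPM in KO. Over the 4 days the value was -1.52 (edgeR adjusted p = 1e-04), called in each of the 24 fits without 1 library. The calls at days 20 and 22 were lost with the stage covariate (-2.55 and -1.73). In WT it fell with age by a log2 of 1.51 (edgeR adjusted p = 0.00331), and by 1.05 without WT replicate 2 of day 26 (edgeR adjusted p = 0.0947). The other four genes of this list that passed the filter were not called in any comparison. Of the monocyte and neutrophil list, 0 of 3 passed between the genotypes, and Mpo, the myeloperoxidase of neutrophils, rose with age in KO by a log2 of 1.06 (edgeR adjusted p = 0.0448, lost in 5 of 24 fits without 1 library).

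Genes of other interstitial cell types were counted in the same way. In the mean of the 4 days, where 7.08% of all genes passed, 3 of 8 endothelial genes were lower in KO, Emcn (-0.71), Pecam1 (-0.57) and Cdh5 (-0.54), and the list had a median of -0.41. At day 22 Kdr, a receptor for VEGF, was lower (-0.95, edgeR adjusted p = 0.0444, lost in 16 of 24 fits without 1 library). Of 6 peritubular myoid genes, Myh11 (-0.53) and Acta2 (-0.42, lost in 15 of 24 fits without 1 library) were lower, with a median of -0.43. The 5 calls in the mean were lost with the stage covariate. The members' median was 0.03, with 1 of 10 called. The Leydig list had a median of 0.38, with 1 of 7 called, Insl3 (0.78, edgeR adjusted p = 0.0496, lost in 18 of 24 fits without 1 library). With age 7 of 7 Leydig genes were called higher in WT (median 1.85) and 2 of 7 in KO (median 0.49), against 24.4% and 27.2% of all genes. All 7 were above 0 in KO as well. In the test of the difference between the genotypes 0 of 7 passed (lowest edgeR adjusted p = 0.304). Of the 10 macrophage genes 0 passed with age in either genotype. Cyp11a1 and Cyp17a1, enzymes of steroid synthesis, rose by log2 values of 2.97 and 3.42 in WT and of 1.22 and 1.69 in KO. With the stage covariate the values of both genes turned direction in both genotypes, and none was called. The difference between the Leydig and macrophage lists was not tested. Germ cells moved as well, since 6 of 7 round spermatid genes were higher in KO at day 20 (median 2.37), led by Acrv1 (3.96), Spaca1 (1.97), Catsper3 (3.93) and Tssk2 (3.54), where 2.98% of all genes were higher and the members had a median of 0.18 with 0 called. Without WT replicate 2 of day 20 the calls of Spaca1, Catsper3 and Tssk2 were lost (edgeR adjusted p = 0.0622, 0.0631 and 0.0887). With only the day 20 libraries, 0 of all genes were called higher in KO at that day, and Catsper3 did not pass the filter there. At day 22 edgeR called 4 of 6 elongating spermatid genes higher in KO (median 4.48, DESeq2 0), against 1.26% of all genes. In the mean of the days it called 6 of these 6 (median 2.68, DESeq2 2) and 4 of 7 round spermatid genes (median 0.95, DESeq2 6), against 3.52%. The part of germ cells in the member levels was not tested.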

How the data were processed

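Groups and replicate numbers came from the sample labels, which give 4 libraries for each genotype at day 20, more than the study's text. Ribosome-depleted, stranded libraries were sequenced in pairs. The authors aligned the reads to mm10 with STAR 2.7.11b and counted pairs per gene with HTSeq, using the strand, leaving out pairs with several alignments. The deposited values are raw counts, 1 table per library, with 24456 genes and 5 tallies. These tallies entered neither the library totals nor the tests. Pairs without a feature made up 45.1% to 58.5% of a table and pairs with several alignments 4.74% to 13.7%. Assigned counts ranged from 10709667 to 19491935, and the low counts of Cd163 limit its precision most.

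Counts were fitted here with edgeR 4.0.16 (R 4.3.3; TMM, minimum count 10, robust quasi-likelihood F test, two-sided) with 1 coefficient for each of 8 groups over all 24 libraries, and p-values were adjusted over 17170 genes by Benjamini-Hochberg. Log2 CPM used a prior count of 2. Exon lengths came from GENCODE M21. The study calls the samples biological replicates, but no source used here says that each came from a separate animal, so p-values measure the spread between these samples. Within a genotype and day, the counts of every pair of libraries differed by a chi-square per degree of freedom of at least 5.07, more than sampling noise. Pairs across groups were not compared, and this check cannot tell whether libraries came from separate animals. The alternatives were DESeq2 1.42.0, other scalings (DESeq2 size factors, total counts, the Sertoli gene list), no filter, only the libraries compared, a covariate for the spermatid stage, a replicate block and leaving out each library.

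The members and lists were chosen with earlier results of these data known. Named are all members, up to 4 called genes of each other list in a comparison with the lowest p first (not for every list and comparison), the 10 genes most like the members, and Atad2.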

Additional observations from a re-analysis of the deposited data

Results flagged for a closer look

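In 40 groups of 4 libraries (10 genes, days 20 and 22), the gap of the lowest or highest library to its neighbour was set against the range of the group, and 2 groups passed Dixon's 95% critical value. Both concern WT replicate 1 of day 20, where Adgre1 read 7.7 CPM and Cd163 1.26 CPM, each below the other WT libraries of that day. Chance gives about 1 in 20 such groups. The library was low for 9 of the 10 members (mean deviation -0.39). Without it, the log2 fold change of Cd163 at day 20 was -0.0437 in place of 0.17.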

How the results depend on the processing

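At day 22, 1 member (Cd163) passed when the libraries were scaled to the Sertoli list and with DESeq2, and 0 to 1 when 1 library was left out (1 without KO replicate 3 of day 22). At day 26, 2 passed (Cd163 and Cx3cr1) when only that day's libraries were fitted. In the mean of the days 0 passed without the filter on low counts, with the stage covariate and with the replicate block, and 0 to 1 without 1 library. With age in WT, 6 passed on the Sertoli scale, 1 (Cx3cr1) with only the WT libraries and with the block, and 0 to 1 without 1 library, and in KO 2 (Cd163 and Cx3cr1) with total counts and 0 to 2 without 1 library. The causes were not tested.

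With the replicate block Cd163 stood at -0.66 over the 4 days (edgeR adjusted p = 0.0601). Deviations of libraries of the same number correlated by 0.0705 to 0.41 at day 20, -0.459 to -0.0254 at day 22, 0.39 at day 24 and 0.416 at day 26 (with 2 libraries a genotype, both numbers give the same value). The labels do not say that a number marks a shared batch or litter, and the values do not show a pairing at every day.

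None of the values that turned direction was called under the alternative. With the stage covariate, Cx3cr1 and Cd163 stood at -0.16 and -0.0647 at day 20, Cd68 at -0.32, Mrc1 at -0.0191, C1qa at -0.18, C1qb at -0.0749 and C1qc at -0.13 over the 4 days, and with age in WT Cx3cr1 at -0.21, Cd163 at -0.17, Irf8 at -0.97, Nr1h3 at -0.16, Aif1 at -0.88, H2-DMa at -0.78, H2-DMb1 at -0.33, Cyp11a1 at -0.71 and Cyp17a1 at -0.71. In KO with age Cyp11a1 stood at -0.58 and Cyp17a1 at -0.22, and at day 20 Spaca1, which is part of the stage score, at -0.0258. On the Sertoli scale Mrc1 stood at -0.0272, C1qb at -0.0056 and C1qc at -0.0382 over the 4 days. Leaving out 1 library gave -0.0437 to 0.28 for Cd163 at day 20, -0.42 to 0.0675 and -0.22 to 0.76 for Cx3cr1 at days 22 and 24, and over the 4 days -0.16 to 0.0941 for Csf1r, -0.20 to 0.0638 for Adgre1, -0.0811 to 0.29 for Cd68, -0.0164 to 0.11 for Mrc1, -0.0438 to 0.18 for C1qb and -0.0589 to 0.12 for C1qc.

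Over all genes, calls at day 20 numbered 573 (5 with only that day's libraries or the stage covariate, 888 with DESeq2), at day 22 431 (55 with the covariate, 839 on the Sertoli scale), at day 24 15 (40 with DESeq2), at day 26 8 (5 on the Sertoli scale, 2104 with only that day's libraries) and in the mean 1215 (186 with the covariate, 1784 with DESeq2). With age, 7292 passed in WT (0 with the covariate, 6000 with only the WT libraries, 7767 with the block, 8110 on the Sertoli scale) and 8955 in KO (1100 with the covariate, 9719 with total counts). DESeq2 called 272 genes between days and 211 in the interaction, against 1 and 0. Fits of only the compared libraries hold no mean of days, joint test or interaction.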
